A study of Mus musculus with 14 samples.

Results

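The genes described here are 10 genes of leukocyte recruitment, namely the adhesion molecules Icam1, Vcam1, Sele and Selp, the chemokines Ccl2, Ccl7, Cx3cl1, Cxcl10 and Cxcl12, and the chemokine scavenger receptor Ackr3. They were taken by gene name from the count and FPKM tables of mouse skeletal muscle, which list 54532 genes, and each name was found. Leukocytes leave the blood in steps. Selectins on activated endothelium (P-selectin, Selp, and E-selectin, Sele) let them roll, chemokines shown on the vessel wall activate their integrins, and Icam1 and Vcam1 bind those integrins so that the cells stop and cross. Inflammatory cytokines raise most of these genes in endothelial cells through NF-kB, whereas Cxcl12 and its scavenger Ackr3 are also made in resting vessels and stroma, where they guide progenitor and immune cells.

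RNA was measured by sequencing of polyadenylated transcripts from skeletal muscle of male FVB/N mice in 14 libraries. EC-Myc OE mice carry a human MYC transgene under a tetracycline-responsive promoter (tetO-MYC) and the transactivator tTA under the endothelial Cdh5 promoter. Doxycycline was withdrawn at 4 to 6 weeks of age, which switches the transgene on in endothelial cells, and CT mice carry tetO-MYC without the transactivator. Mice of both genotypes then received control diet (CTD) or a high-fat western diet (WD) for 20 weeks. By label there are CT-CTD (3 libraries), CT-WD (3), OE-CTD (4) and OE-WD (4), where OE stands for EC-Myc OE, and libraries are numbered as labelled. A figure legend in the study gives other group sizes and its text another time on diet, and the labels were kept. The transgene is Y-linked, which leaves females out of the model. Which muscle a library came from is not labelled, and the human transgene is absent from the tables. The labels give each library a code but do not say that each is a separate animal. The codes form series of unstated meaning, and no series holds both genotypes or both diets of EC-Myc OE. Genotype, and diet in EC-Myc OE, therefore cannot be told apart from the series. Both CT libraries numbered 1 have codes apart from the other CT libraries, and OE-CTD 4 from the other OE-CTD libraries. The p-values measure the spread between these libraries.

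Library totals ran from 21833839 to 28519159 counts. Levels are given as CPM (counts scaled to library size with edgeR's TMM factors) when libraries are compared, and as the deposited FPKM, which also divide by gene length, when genes are compared. A filter on low counts left 15458 genes for testing, among them 7 of the 10 genes described here. Sele, Ccl7 and Cxcl10 did not pass it. A gene is called altered >1.5-fold at a fold over 1.5 together with an adjusted p under 0.05 in edgeR's quasi-likelihood test with Benjamini-Hochberg adjustment over all genes tested.

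The genes differed widely in abundance. Cxcl12 was the most abundant, with a mean of 19.95 FPKM over the 14 libraries (range 11.2 to 26.8), which placed it at percentile 88.2 of the tested genes. Ackr3 followed at 7.29 FPKM (range 4.45 to 10.75), at percentile 73.1. Cx3cl1, a membrane-bound chemokine that also acts as an adhesion molecule, had 1.335 FPKM and Icam1 1.16 FPKM, and these values lay closer together than the spread of either gene between libraries (coefficients of variation of 30.9% and 23.3%). The monocyte chemoattractant Ccl2 had 0.583 FPKM, Selp 0.488 and Vcam1 0.395. Ccl7 was at 0.284 FPKM, Sele at 0.08015 and Cxcl10 at 0.0508. The constitutive pair was thus well above the inducible genes in these muscles.

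On GRCm38, Icam1 (ENSMUSG00000037405) lies on chromosome 9 from 21015985 to 21028817, plus strand, and Vcam1 (ENSMUSG00000027962) on chromosome 3 from 116109949 to 116129688, minus strand. Cxcl12 (ENSMUSG00000061353) lies on chromosome 6 from 117168535 to 117181367, plus strand, and Cx3cl1 (ENSMUSG00000031778) on chromosome 8 from 94772009 to 94782427, plus strand. Some of the genes are neighbours. Sele (ENSMUSG00000026582; 164048234 to 164057677) and Selp (ENSMUSG00000026580; 164115264 to 164150026) lie close together on the plus strand of chromosome 1, which also holds Ackr3 (ENSMUSG00000044337; 90203980 to 90216751, plus strand). Ccl2 (ENSMUSG00000035385; 82035571 to 82037453), Ccl7 (ENSMUSG00000035373; 82045712 to 82047525) and the eosinophil chemoattractant gene Ccl11 (82057823 to 82062955) follow each other on the plus strand of chromosome 11. Cxcl10 (ENSMUSG00000034855; chromosome 5, 92346638 to 92348889, minus strand) overlaps Art3 on the other strand. Art3 had a mean of 132 CPM, and whether counting used strand is not given in the sources used here, so the counts of Cxcl10 are uncertain. All 10 genes are annotated as protein coding.

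Libraries differed in normalization factors, in the share of mitochondrial counts and in the levels of cell-type markers. OE-CTD 4 and OE-WD 4 stood apart from the other EC-Myc OE libraries, with normalization factors of 0.888 and 0.899 against 1.02 to 1.07 in the others, and with 14.9% and 14.5% of counts on mitochondrial genes against 10.9% to 12.8%. Fast-fibre genes marked every library as muscle, led by Tnnt3 at a mean of 10510 FPKM. The summed level of 14 endothelial markers, the most abundant being Eng, was 130.0, 129.9 and 132.5 FPKM in CT-CTD, 160.2, 149.8 and 167.1 in CT-WD, 159.9, 161.2, 158.7 and 141.7 in OE-CTD, then 168.8, 164.7, 177.9 and 168.3 in OE-WD. CT-CTD was therefore the lowest group for endothelial RNA, with no overlap with any other group. The summed level of 7 fibroblast markers, led by Dcn, was 91.9, 85.55 and 68.2 FPKM in CT-CTD, 190.2, 79.3 and 78.4 in CT-WD, 178.7, 207.5, 201.7 and 126.6 in OE-CTD, then 147.8, 297.4, 181.6 and 144.2 in OE-WD. All EC-Myc OE libraries were above all CT libraries but CT-WD 1. The summed level of 11 macrophage markers, led by Lyz2, was 56.6, 33.5 and 32.2 FPKM in CT-CTD, 91.1, 48.3 and 40.3 in CT-WD, 62.6, 71.9, 92.6 and 57.95 in OE-CTD, then 54.9, 86.6, 55.75 and 58.9 in OE-WD. The macrophage markers were lowest in CT-CTD 2 and 3, overlapped between CT-CTD and OE-WD, and were high in CT-WD 1, as were the fibroblast markers. Epidermal transcripts, led by Krt5, summed to between 1.29 and 63.8 FPKM, with 47.3 in CT-WD 1. In whole muscle, more or fewer cells of a type and more or less RNA per cell cannot be told apart, and the part of these cell types in the results below was not tested.

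**Figure D1:**
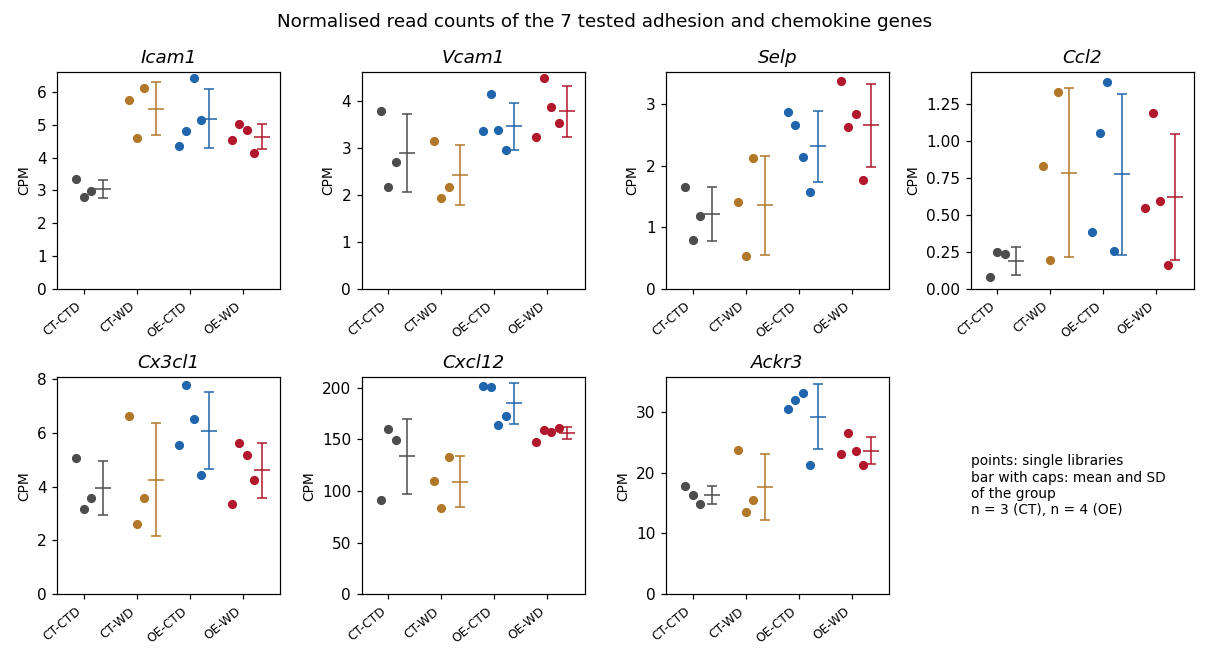
Normalised read counts (CPM, linear axes from 0) of the 7 tested genes in each of the 14 libraries, with the mean and SD of each group beside the points (n = 3 in CT groups, n = 4 in OE groups). Icam1 is low in the 3 CT-CTD libraries alone (2.80 to 3.36 CPM, all others 4.14 or more), and Ackr3 is higher in every OE-CTD library than in every CT-CTD library.

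On control diet, Icam1 and Ackr3 were higher in EC-Myc OE than in CT muscle. Icam1, the integrin ligand that arrests rolling leukocytes, was at 3.36, 2.80 and 2.98 CPM in CT-CTD and at 4.37, 4.82, 6.43 and 5.155 CPM in OE-CTD. The groups did not overlap, and OE-CTD 3 was the highest library. Of all genes tested 15.5% did not overlap in this comparison, 8.73% with OE-CTD higher. Icam1 was 1.70-fold higher (log2 fold change 0.77, standard error 0.168), with an adjusted p of 0.0287 in edgeR's quasi-likelihood test. Ackr3, which removes CXCL12 from the extracellular space, was at 17.8, 16.3 and 14.8 CPM in CT-CTD and at 30.5, 31.9, 33.1 and 21.3 CPM in OE-CTD. OE-CTD 4 was the lowest of its group yet above every CT-CTD library. This was 1.79-fold (log2 fold change 0.84, standard error 0.179), with an adjusted p of 0.0238 in the same test. Among all 15458 genes tested, 295 (1.91%) were altered >1.5-fold in this comparison, 183 upward and 112 downward. The 2 altered genes of the 7 are set against that share as a description, since the genes were named with earlier results of these data known.

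The other 5 tested genes also had positive log2 fold changes between OE-CTD and CT-CTD, but did not pass the adjusted threshold in edgeR's test with the filter. At a fold over 1.5 with an unadjusted p under 0.05, 5 of the 7 genes were higher, Ccl2 among them, against 4.94% of all genes tested (7.12% in either direction). Leaving out 1 library moved this count to 2 without OE-CTD 2 and to 3 without CT-CTD 3, OE-CTD 1 or OE-CTD 3. Without CT-CTD 3, 8 of the 10 genes passed the filter, so a gene outside the 7 can be among these. Of all genes tested 49.9% had a positive log2 fold change. Selp, whose protein is stored in endothelial cells and platelets and released to the surface within minutes, was at 1.66, 0.795 and 1.19 CPM in CT-CTD and at 2.88, 2.67, 2.14 and 1.58 CPM in OE-CTD. The groups overlapped at OE-CTD 4, at 0.93 on the log2 scale (adjusted p = 0.241, standard error 0.383). Ccl2, which draws monocytes through Ccr2, had 2, 6 and 6 counts in CT-CTD and 10, 32, 34 and 5 counts in OE-CTD. In CPM this was 0.0791, 0.251 and 0.238 against 0.383, 1.06, 1.40 and 0.255, so the lowest OE-CTD library, OE-CTD 4, was barely above the highest CT-CTD library. The log2 fold change of Ccl2 was 2.03 with a standard error of 0.797 (adjusted p = 0.218). In a fit of OE-CTD and CT-CTD alone, Ccl2 did not pass the filter on low counts and was not tested. Cxcl12 was at 91.6, 159.6 and 149.3 CPM in CT-CTD and at 201.6, 200.8, 163.6 and 172.6 CPM in OE-CTD. Every OE-CTD library was above every CT-CTD library, and CT-CTD 1 was far below the rest. The difference was 0.47 on the log2 scale (adjusted p = 0.177, standard error 0.170), or 0.25 without CT-CTD 1. Cx3cl1 was at 0.63 (adjusted p = 0.304, standard error 0.291) and Vcam1 at 0.27 (adjusted p = 0.629, standard error 0.225). The median log2 fold change of the 7 genes was 0.77, that of the fibroblast markers 0.87, the macrophage markers 0.84 and the endothelial markers 0.27, and that of all genes tested 0.00.

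The calls for Icam1 and Ackr3 on control diet depended on single libraries, and that for Icam1 also on the fit. Icam1 was not called with a block for replicate number (log2 fold change 0.76, adjusted p = 0.0719 in edgeR's test) or by limma on log2(FPKM + 1) (0.38, under 1.5-fold), while Ackr3 was called with both. Leaving out 1 library at a time kept the log2 fold change of Icam1 between 0.64 and 0.84, while its adjusted p ranged from 0.0212 to 0.120. It was over the threshold without CT-CTD 2 (log2 fold change 0.71, adjusted p = 0.120), CT-CTD 3 (0.75, 0.119), OE-CTD 2 (0.80, 0.0607) or OE-CTD 3 (0.64, 0.0854). Ackr3 stayed between 0.78 and 0.97, and its adjusted p, from 0.00424 to 0.125, was over the threshold without CT-CTD 2 (0.84, 0.0898), CT-CTD 3 (0.78, 0.125), OE-CTD 1 (0.82, 0.0569), OE-CTD 2 (0.80, 0.0749) or OE-CTD 3 (0.78, 0.0777). Without both OE libraries numbered 4, an alternative chosen after seeing the data, both genes remained altered, at 0.77 (adjusted p = 0.0376) for Icam1 and 0.96 (adjusted p = 0.0129) for Ackr3.

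On WD, 0 of the 7 genes were altered between OE-WD and CT-WD in edgeR's test, against 87 of all genes tested (0.563%). At a fold change over 1.5 with an unadjusted p under 0.05 there were 2, Vcam1 and Selp, against 5.74% of all genes tested. This count was 0 without CT-WD 2, 1 without OE-WD 1 or OE-WD 2, and 3 without CT-WD 1. DESeq2 altered none of the 7 at its adjusted p. Vcam1, the endothelial ligand of the integrin VLA-4, was at 3.15, 1.93 and 2.18 CPM in CT-WD and at 3.23, 4.49, 3.87 and 3.54 CPM in OE-WD. The libraries did not overlap, although CT-WD 1 was close to the lowest OE-WD library. Of all genes tested 11.6% did not overlap in this comparison, 6.06% with OE-WD higher. The log2 fold change of Vcam1 was 0.64 with a standard error of 0.228 (adjusted p = 0.178 in edgeR's quasi-likelihood test). Selp was at 1.41, 0.5315 and 2.13 CPM in CT-WD and at 3.385, 2.63, 2.85 and 1.77 CPM in OE-WD. CT-WD 3 was above OE-WD 4, at 0.96 on the log2 scale (adjusted p = 0.221, standard error 0.379). Cxcl12 was at 109.8, 83.4 and 132.7 CPM in CT-WD and at 147.2, 159.0, 157.3 and 160.5 CPM in OE-WD. The OE-WD libraries were close together and all above CT-WD, at 0.52 on the log2 scale (adjusted p = 0.146, standard error 0.171), a fold of 1.44 that is under the limit of 1.5.

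Ackr3 on WD was at 23.7, 13.6 and 15.5 CPM in CT-WD and at 23.1, 26.55, 23.5 and 21.2 CPM in OE-WD. CT-WD 1, the library with high fibroblast and macrophage markers, reached the OE-WD level and the other CT-WD libraries did not. On the log2 scale this was 0.42 (adjusted p = 0.251 in edgeR's test, standard error 0.177). Without CT-WD 1 it was 0.70 (adjusted p = 0.0170) and that of Vcam1 was 0.88 (adjusted p = 0.0396), so both then passed, and the count of all altered genes went from 87 to 905. Without CT-WD 2 the values were 0.26 for Ackr3 (adjusted p = 0.626) and 0.50 for Vcam1 (adjusted p = 0.477), with 13 altered genes, and without CT-WD 3 there were 7. Icam1 was at 5.75, 4.59 and 6.135 CPM in CT-WD and at 4.55, 5.015, 4.85 and 4.14 CPM in OE-WD, with overlapping groups and a log2 fold change of -0.24 (95% interval -0.59 to 0.10). For Ccl2 it was -0.33 (95% interval -1.77 to 1.11) and for Cx3cl1 0.10 (95% interval -0.52 to 0.71), or 0.57 without CT-WD 1 (adjusted p = 0.205).

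**Figure D2:**
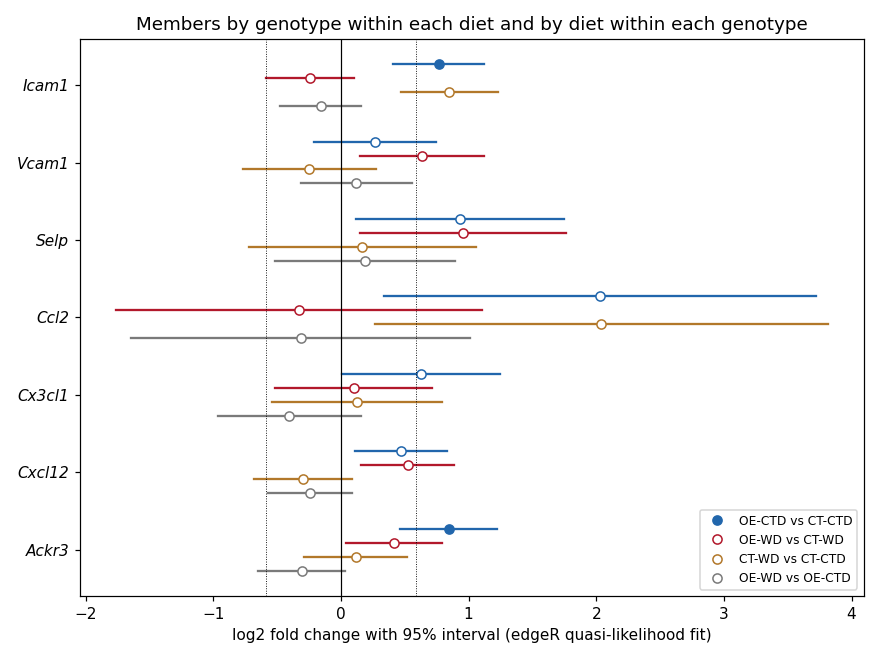
Log2 fold changes (points) with 95% intervals (lines) of the 7 tested genes in 4 comparisons from a single edgeR fit, where a filled point marks a fold over 1.5 with an adjusted p under 0.05 and dotted lines mark 1.5-fold. Icam1 and Ccl2 lie to the right for EC-Myc OE on control diet and for WD in CT (Icam1 0.77 and 0.85). The whole intervals of Selp, Cxcl12 and Ackr3 lie to the right of no change for EC-Myc OE on both diets.

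Averaged over both diets, Ackr3 and Selp were higher in EC-Myc OE, 2 of the 7 genes against 562 of all genes tested (3.64%). This average uses the same libraries as the comparisons within each diet and adds no independent data. Ackr3 was at 0.63 on the log2 scale (standard error 0.126, adjusted p = 0.00772 in edgeR's quasi-likelihood test) and Selp at 0.95 (standard error 0.27, adjusted p = 0.0411). Cxcl12 also passed the adjusted threshold (0.49, standard error 0.120, adjusted p = 0.0201), at a fold of 1.41 that is under the limit. Vcam1 was at 0.45 (adjusted p = 0.0969), Cx3cl1 at 0.36 (0.300), Icam1 at 0.26 (0.186) and Ccl2 at 0.85 (0.347). All 7 were positive, with a median of 0.49 against 0.66 for the fibroblast markers, 0.50 for the macrophage markers, 0.25 for the 14 endothelial markers and 0.00 for all genes tested. Of the endothelial markers 12 were positive, against 49.7% of all genes tested, and 6 passed the adjusted threshold at folds under 1.5, against 8.49% at any fold, among them the VEGF receptor gene Kdr (0.44, adjusted p = 0.0318) and Tek (0.45, adjusted p = 0.00333). Of the 7 fibroblast markers 5 were altered >1.5-fold, all upward.

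The averaged call for Selp was the less stable of both. It was over the adjusted threshold when any of 9 libraries was left out, with log2 fold changes of 0.83 without CT-CTD 2 (adjusted p = 0.106), 0.94 without CT-CTD 3 (0.0928), 0.76 without CT-WD 2 (0.0813), 0.89 without OE-CTD 1 (0.0757), 0.91 without OE-CTD 2 (0.0818), 0.96 without OE-CTD 3 (0.0634), 0.88 without OE-WD 1 (0.0687), 0.95 without OE-WD 2 (0.0717) and 0.93 without OE-WD 3 (0.0717). The adjusted p of Ackr3 was under 0.05 in all 14 such fits (highest 0.0263), and its fold fell under the limit without CT-WD 2 (log2 fold change 0.55). Without the same library the adjusted p of Cxcl12 was 0.0572, and it was under 0.05 in the other 13 fits. Cx3cl1 was altered without CT-WD 1 (0.60, adjusted p = 0.0352). By limma on log2(FPKM + 1) both calls ended, with log2 fold changes of 0.30 for Selp (adjusted p = 0.0352) and 0.56 for Ackr3 (adjusted p = 0.0108), under 1.5-fold, while limma with 0.1 added and DESeq2 called both genes.

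WD had its clearest association with Icam1, and in CT muscle. Icam1 was at 3.36, 2.80 and 2.98 CPM in CT-CTD against 5.75, 4.59 and 6.135 CPM in CT-WD, with no overlap. Of all genes tested 9.63% did not overlap in this comparison, 4.47% with CT-WD higher. The log2 fold change of Icam1 was 0.85 (standard error 0.178, 1.80-fold), and its unadjusted p of 0.000224 was the 10th smallest of the 15458 genes. The adjusted p was 0.277 in edgeR's quasi-likelihood test, in which 0 genes passed (0%), and 0.0166 in DESeq2's Wald test. Over the 10 other settings of the fit it was between 0.0166 and 0.981, and only DESeq2's value was under 0.05. At an unadjusted p under 0.05, 471 genes were altered >1.5-fold (3.05%), and 2 of the 7 were among them, Icam1 and Ccl2. In a fit of CT-WD and CT-CTD alone, Ccl2 did not pass the filter on low counts and was not tested. With 1 library left out, the count of such genes among the 10 was 1 without CT-CTD 1 or CT-WD 3 and 3 without CT-CTD 2. In each of these fits 8 of the 10 genes passed the filter, and the 3 were not all among the 7. The count of all genes was 860 without CT-WD 1. Ccl2 had 2, 6 and 6 counts in CT-CTD and 23, 4 and 30 in CT-WD. CT-WD 2 was within the CT-CTD range and the other CT-WD libraries were well above it, at 2.04 on the log2 scale (adjusted p = 0.622, standard error 0.834). This comparison shares the CT-CTD libraries with that of OE-CTD and CT-CTD, so the low Icam1 and Ccl2 of CT-CTD enter both. The median log2 fold change in this comparison was 0.53 for the macrophage markers, 0.50 for the fibroblast markers, 0.23 for the endothelial markers, 0.13 for the 7 genes and 0.01 for all genes tested. The remaining 5 genes lay between -0.30 (Cxcl12) and 0.17 (Selp), each with an interval that includes 0.

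In EC-Myc OE muscle, none of the 7 tested genes passed the test for a difference between diets. In edgeR's test 0 of them were altered between OE-WD and OE-CTD, with 1 gene altered among all tested (0.00647%), and 0 at an unadjusted p under 0.05, against 1.37% of all genes tested. DESeq2 altered none of them either. Cxcl12 was at 201.6, 200.8, 163.6 and 172.6 CPM in OE-CTD and at 147.2, 159.0, 157.3 and 160.5 CPM in OE-WD. Every OE-WD library was below every OE-CTD library, with a log2 fold change of -0.24 (95% interval -0.58 to 0.09). Of all genes tested 4.08% did not overlap in this comparison, 2.23% with OE-WD lower. Ackr3 had a log2 fold change of -0.31 (95% interval -0.65 to 0.03) and Icam1 of -0.16 (95% interval -0.48 to 0.16).

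Whether the response to WD differed between genotypes was tested by the interaction. It was -1.01 for Icam1 on the log2 scale (standard error 0.232), from 0.85 in CT to -0.16 in EC-Myc OE. Its unadjusted p of 0.000537 was the 10th smallest of all genes and its adjusted p was 0.71 in edgeR's test. For Ccl2 the interaction was -2.36 (standard error 1.04, adjusted p = 0.838). No gene of the 7, and none of all genes tested (0%), was altered by this measure after adjustment. At an unadjusted p under 0.05 Icam1 and Ccl2 were, against 2.70% of all genes. Ccl2 did not pass the filter in a fit of CT-WD and CT-CTD alone. With 1 library left out, the unadjusted count among the 10 genes was 3 without CT-CTD 2 or CT-WD 2. In both of these fits 8 of the 10 genes passed the filter, so a gene outside the 7 can be among the 3. The count was 1 without CT-CTD 1 or 3, CT-WD 1 or 3, OE-CTD 2 or 3, or OE-WD 1, 3 or 4. DESeq2 altered 3 genes, none of them among the 7, with an adjusted p of 0.111 for Icam1. A difference in the diet response of these genes between genotypes was thus not established. Selp and Cxcl12 had interactions near 0, at 0.02 (95% interval -1.13 to 1.18) and 0.05 (95% interval -0.45 to 0.56), and the interval of Selp is wide. Averaged over genotypes, WD altered 0 of the 7 genes in edgeR's test, against 1 gene of all tested (0.00647%). At an unadjusted p under 0.05 with a fold over 1.5 there were 0, against 1.60%. DESeq2 also altered none of the 7 at its adjusted p. Icam1 had the smallest p of the 7, at 0.34 on the log2 scale (adjusted p = 0.649, standard error 0.116).

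The 3 genes under the filter were near the limit of detection. Sele had between 1 and 22 counts per library, 27 in all in the 6 CT libraries and 47 in the 8 EC-Myc OE libraries, 22 of which were in OE-CTD 3. Ccl7, a monocyte chemoattractant next to Ccl2, had between 0 and 13 counts, 30 in all in CT and 45 in EC-Myc OE. Cxcl10, a chemokine induced by interferon that draws T cells, had between 0 and 7 counts, 22 in CT and 14 in EC-Myc OE. In an exact two-sided permutation test of the mean CPM between genotypes, permuted within each diet (1225 arrangements, chosen after seeing the data), p was 0.845 for Sele, 0.887 for Ccl7 and 0.0498 for Cxcl10, and 0.149 for Cxcl10 after Benjamini-Hochberg adjustment over the 3. Mean Cxcl10 was 0.151 CPM in CT and 0.0701 CPM in EC-Myc OE, and differences of this size are a few reads per library.

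Leukocyte counter-receptors of these molecules were measured beside them. Of the integrin chains and selectin ligands in this list 9 were tested. For this and the other lists, the share of all genes altered >1.5-fold was 1.91% on control diet, 0.563% on WD and 3.64% averaged over diets. Between OE-CTD and CT-CTD, 0 were altered after adjustment in edgeR's test and 5 at a fold over 1.5 with an unadjusted p under 0.05, all upward, against 7.12% of all genes tested. In the macrophage list these counts were 0 and 7 of 10 tested, against the same 7.12%. Averaged over diets, Cd44, which binds hyaluronan and selectins (0.85, adjusted p = 0.0158), and Itgb7 (0.88, adjusted p = 0.0459) were altered, 2 of 9 against 3.64%. The most abundant was Itgb1, at 62.0 FPKM, an integrin chain that muscle itself expresses (0.14, adjusted p = 0.206). Of 13 other chemokine receptors 6 were tested and 0 were altered in any of the genotype comparisons, against the shares above. The most abundant was Ackr1, at 2.46 FPKM, and the decoy receptors Ackr4 (1.05, adjusted p = 0.0617) and Ackr2 (0.76, adjusted p = 0.106) had the smallest p-values averaged over diets. Cxcr4, the signalling receptor for CXCL12, had a log2 fold change of 0.18 (adjusted p = 0.754), and Cx3cr1, the receptor for CX3CL1, was under the filter with at most 12 counts.

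Among 13 other endothelial adhesion and junction genes (12 tested; Cd99l2 the most abundant at 26.8 FPKM), the sialomucin genes Cd34 and Podxl, both carriers of selectin ligands in some vessels, were altered in a genotype comparison, in which 1.91% of all genes were altered on control diet, 0.563% on WD and 3.64% averaged over diets. Cd34 was altered between OE-CTD and CT-CTD (log2 fold change 0.60, standard error 0.144, adjusted p = 0.0389 in edgeR's test). Podxl was altered between OE-WD and CT-WD (0.68, standard error 0.142, adjusted p = 0.0399) and averaged over diets (0.61, adjusted p = 0.00268). Its 8 EC-Myc OE libraries were all above the 6 CT libraries, as were those of 1.06% of all genes tested. Of 28 other chemokines 15 were tested, led by Cxcl14 at 20.2 FPKM. Ccl11 was altered on control diet (0.82, standard error 0.159, adjusted p = 0.0155) and averaged over diets (0.70, adjusted p = 0.00232), and Cxcl16, a chemokine that is also a scavenger receptor, averaged over diets (0.83, adjusted p = 0.0365). The chromosomal neighbours of Ccl11 in the list described here were Ccl2, which did not pass, and Ccl7, which was not tested. Of 18 genes of NF-kB and cytokine signalling 15 were tested, Nfkbia being the most abundant at 22.7 FPKM, and 1 was altered by genotype, against the same shares. This was Il1r1, the interleukin-1 receptor, which was lower in OE-CTD than in CT-CTD (-1.32, standard error 0.242, adjusted p = 0.0112) and lower averaged over diets (-1.14, adjusted p = 0.00140). The median of that list was 0.02 on control diet. The 16 interferon-responsive genes, led by Gbp2 at 2.85 FPKM, had a median of 0.01 in the same comparison, and the 8 glycan enzymes of selectin ligands (6 tested, led by St3gal6 at 16.1 FPKM) 0.27, and none of either list was altered by genotype. In that average Ifit1 had the smallest p of the interferon list (-0.69, adjusted p = 0.179).

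Markers of neutrophils, T and NK cells and B cells were low, and of these only the neutrophil gene Csf3r passed the filter. Summed over 7 neutrophil markers, the level was between 0.129 and 2.775 FPKM per library, led by S100a9, with Ly6g at 0 counts in every library. The 8 T and NK cell markers had at most 8 counts each in any library, led by Cd2, and the 4 B cell markers also at most 8, led by Cd79b. Of 5 platelet markers, which matter for Selp, Pf4 led at 4.97 FPKM, a gene that macrophages also express, and Itga2b had up to 82 counts at a mean of 0.446 FPKM, beside 0.488 FPKM for Selp. Ppbp had at most 12 counts, Gp9 at most 4, and Gp1bb 0 in every library. In the remaining marker lists, genotype averaged over diets altered Cspg4 of 8 pericyte and smooth muscle genes (0.72, adjusted p = 0.0115 in edgeR's test). It also altered Lep of 6 adipocyte genes (2.25, adjusted p = 0.0136) and Chodl of 5 satellite cell genes (0.67, adjusted p = 0.0409). No gene of the red blood cell, slow fibre, fast fibre and epidermis lists was altered. Of all genes tested 3.64% were altered in this comparison. The pericyte and smooth muscle, adipocyte and satellite cell lists had median log2 fold changes of 0.16, 0.20 and -0.13. Of their genes 6, 4 and 2 were positive.

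Across the 14 libraries the 7 tested genes varied together to different degrees. The Pearson correlation of log2 CPM was positive for all 21 pairs, with a median of 0.517, and is given as a description, since the libraries share groups and cell content. It was highest for Cx3cl1 and Ackr3 (0.840) and lowest for Icam1 and Cxcl12 (0.067). Icam1 and Ccl2 were correlated at 0.737, as were Vcam1 and Selp. The tested genes most like each of them by the same measure were Litaf (0.889), Sik1 and Naip2 for Icam1, Enpep (0.941), Vit and Fam114a1 for Vcam1, and Pacsin2 (0.951), Dvl3 and Ext1 for Selp. They were Nupr1 (0.891), Medag and Fbxo4 for Ccl2, Taok3 (0.955), Ppm1m and Rara for Cx3cl1, Pik3ap1 (0.953), Lrrn4cl and Cmtm3 for Ackr3, and Ets1 (0.938), Rftn1 and Kdr for Cxcl12. Ets1 and Kdr are expressed in endothelial cells.

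Promoter windows of 300 bases, from 250 before to 50 after the start of the gene in RefSeq (GRCm38.p6), were found for 7 of the 10 genes, Icam1, Sele, Selp, Cx3cl1, Cxcl10, Cxcl12 and Ackr3, and were searched on both strands. The letters CACGTG, the E-box that MYC binds, were in 0 of these 7 windows and in 7.15% of the 32851 windows of all genes. The NF-kB type motif GGGNNNNTCC was in those of Icam1, Sele and Cxcl10 (19.2% of all windows), and the related letters GGAAANTCC, which can overlap it, in those of Icam1 and Cxcl10 (1.25%). The TATA box TATAAA was in those of Icam1, Sele, Cx3cl1 and Ackr3 (13.6%). A match is a description of the letters and not evidence of binding. The windows of the 4 genes that passed the adjusted threshold in a genotype comparison are shown with matches to these motifs in capitals. That of Icam1 holds GGAAATTCC 153 bases before the listed start the minus-strand match 120 bases before it and TATAAA 13 bases after it, that of Ackr3 holds TATAAA 8 bases before the start, and those of Cxcl12 and Selp hold none of the motifs searched.
Icam1 (chr9:21015690-21015989, plus strand): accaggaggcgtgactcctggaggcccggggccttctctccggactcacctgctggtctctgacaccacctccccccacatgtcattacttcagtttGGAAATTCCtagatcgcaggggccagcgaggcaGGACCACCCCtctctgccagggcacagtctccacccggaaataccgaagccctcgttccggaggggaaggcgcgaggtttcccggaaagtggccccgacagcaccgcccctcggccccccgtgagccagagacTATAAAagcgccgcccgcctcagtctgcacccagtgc
Ackr3 (chr1:90203730-90204029, plus strand): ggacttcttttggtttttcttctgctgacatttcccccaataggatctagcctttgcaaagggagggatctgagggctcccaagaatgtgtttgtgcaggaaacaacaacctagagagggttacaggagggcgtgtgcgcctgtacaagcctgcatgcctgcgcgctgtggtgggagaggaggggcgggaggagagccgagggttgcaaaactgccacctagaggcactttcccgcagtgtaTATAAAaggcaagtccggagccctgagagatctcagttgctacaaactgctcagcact
Cxcl12 (chr6:117168285-117168584, plus strand): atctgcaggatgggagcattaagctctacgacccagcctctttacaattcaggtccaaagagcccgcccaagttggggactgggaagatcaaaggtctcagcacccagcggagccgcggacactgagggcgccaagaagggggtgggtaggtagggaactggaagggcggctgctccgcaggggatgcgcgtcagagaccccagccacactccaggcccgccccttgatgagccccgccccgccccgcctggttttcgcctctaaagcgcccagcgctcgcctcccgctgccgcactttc
Selp (chr1:164115014-164115313, plus strand): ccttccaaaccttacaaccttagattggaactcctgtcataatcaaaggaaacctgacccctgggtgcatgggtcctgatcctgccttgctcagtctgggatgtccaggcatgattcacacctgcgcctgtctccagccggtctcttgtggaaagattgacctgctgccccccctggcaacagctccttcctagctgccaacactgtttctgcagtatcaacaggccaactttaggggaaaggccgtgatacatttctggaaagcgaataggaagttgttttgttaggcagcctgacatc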

How the data were processed

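The authors deposited counts of reads per gene, without normalization, and FPKM, which divide those counts by gene length and a library total. The deposited count table also lists gene length, an annotation used only for description. The submitters' processing notes list HISAT2 2.0.5, featureCounts 1.5.0-p3 and mm10, without their roles. Gene positions of all 10 genes equal those of GENCODE M21.

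Counts were tested in edgeR 4.0.16 (R 4.3.3) by the quasi-likelihood test, with TMM normalization, filterByExpr and a mean per group over all 14 libraries, with Benjamini-Hochberg adjustment within each comparison. The biological coefficient of variation was 17%. Log2 CPM used a prior count of 2. Libraries were grouped by label, and no 2 of a group agreed within sampling noise (chi-square per degree of freedom at least 7.84). This measure was 7.84 to 10.6 among OE-CTD 1 to 3 and 8.56 to 15.25 among OE-WD 1 to 3. In the other pairs it was 16.9 to 50.95, and the reason for the closer pairs was not tested. Alternatives used other scaling, DESeq2 1.42.0, no filter, limma 3.58.1 on log2(FPKM + 1) and log2(FPKM + 0.1), fits of 2 groups, a replicate block and left-out libraries. Scripts were tested on simulated data. Same-numbered CT-WD and CT-CTD libraries deviated together (correlations of 0.385, 0.123 and 0.203). The main fit used no pairing. Only the replicate block took the numbers as a pairing, from this check alone, and it changed no call between CT-WD and CT-CTD.

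The members and lists were chosen with earlier results of these data known. For 1 gene of the counter-receptor list the result is not reported here. Named genes are the 10 members; from each other pathway list those past both thresholds, or else up to 3 with the smallest unadjusted p, and the most abundant; and the 3 genes most correlated with each tested member. Some receptors, marker genes and a gene overlapping a member are also named, for their roles or position.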

Additional observations from a re-analysis of the deposited data

Results flagged for a closer look

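Sele in OE-CTD 3 was far above the other libraries of its group, at 0.907 CPM (22 counts) against 0.153, 0.09897 and 0.05103 CPM in OE-CTD 1, 2 and 4. Icam1 and Ccl2 were also highest in OE-CTD 3 among the OE-CTD libraries, at 6.43 and 1.40 CPM, as were the summed macrophage markers at 92.6 FPKM. Of 20 combinations of a gene and a group of 4 libraries examined, this was the 1 that stood out, and chance alone gives about 1.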

How the results depend on the processing

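Values are given by setting, where G is the number of all genes altered and M that of the 7. Without the filter, G was 88 for CT-WD vs CT-CTD, 5 for OE-WD vs OE-CTD, 570 for OE-CTD vs CT-CTD, 401 for OE-WD vs CT-WD, 29 for the interaction and 47 for diet averaged. The adjusted p of Cxcl12 between genotypes was then 0.0481 on control diet and 0.0279 on WD in edgeR's test, at folds under 1.5. On WD it was also under 0.05 without both CT libraries numbered 1. With DESeq2, G was 31 (M 1) for CT-WD vs CT-CTD, 509 for OE-CTD vs CT-CTD, 309 for OE-WD vs CT-WD, 3 for the interaction and 15 for diet averaged. With limma, G for OE-CTD vs CT-CTD was 117 (M 1) with 1 added to FPKM and 196 with 0.1 added, for OE-WD vs CT-WD 30 with either, and for genotype averaged 189 (M 0) with 1 added. With 1 added Icam1 was at 0.38 on control diet. Fitting OE-WD and CT-WD alone gave 4.

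Without both CT libraries numbered 1, G was 31 for CT-WD vs CT-CTD, 550 for OE-CTD vs CT-CTD, 997 (M 2) for OE-WD vs CT-WD, 1 for the interaction, 1295 (M 4) for genotype averaged and 21 for diet averaged. The diet difference in CT was then reversed for Cx3cl1 (-0.13) and Ackr3 (-0.0923), and the interaction for Selp (-0.24). Without both OE libraries numbered 4, G was 0 for OE-WD vs OE-CTD and 4 for OE-WD vs CT-WD.

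Genotypes and OE diets share only a number (pairing check: OE-WD vs OE-CTD 0.071 to 0.338; OE-CTD vs CT-CTD -0.122 to 0.046; OE-WD vs CT-WD -0.230 to -0.065). The replicate block gave G 151 (M 1), 6, 1 and 870 for OE-CTD vs CT-CTD, OE-WD vs CT-WD, the interaction and genotype averaged. In it Icam1 was at 0.76 (adjusted p = 0.0719 by edgeR) on control diet and Ccl2 was reversed at 0.0767 on WD. It changed no other call.

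Leaving out 1 library, G ranged from 0 to 41 for CT-WD vs CT-CTD, 0 to 2 for OE-WD vs OE-CTD, 64 to 440 (M 0 to 2) for OE-CTD vs CT-CTD, 4 to 905 (M 0 to 2) for OE-WD vs CT-WD, 0 to 1 for the interaction, 335 to 1111 (M 0 to 3) for genotype averaged and 1 to 23 for diet averaged. Directions reversed in the ranges -0.29 to 0.53 (Selp), -0.35 to 0.38 (Cx3cl1) and -0.16 to 0.27 (Ackr3) for CT-WD vs CT-CTD, -0.85 to 0.11 (Ccl2) for OE-WD vs OE-CTD, -0.15 to 0.57 (Cx3cl1) and -0.86 to 0.25 (Ccl2) for OE-WD vs CT-WD, -0.34 to 0.48 (Selp) and -0.11 to 0.27 (Cxcl12) for the interaction, and -0.19 to 0.0505 (Vcam1) and -0.0515 to 0.36 (Selp) for diet averaged. None of these 10 passed the test. The cause was not tested.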

Other observations

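Epidermal transcripts differed between libraries of a group, from 7.65 to 63.8 FPKM summed in OE-WD. With 3 or 4 libraries per group, the 95% interval of Ccl2 between OE-CTD and CT-CTD ran from 0.33 to 3.72 on the log2 scale, and 0.0467% to 0.0695% of counts lay in genes under the filter. RNA of whole muscle was measured, so protein on the vessel wall and leukocyte adhesion were not. The summed endothelial, fibroblast and macrophage markers of every CT-CTD library were below those of every OE-CTD library, the comparison in which Icam1 and Ackr3 were higher, and whether those genes differ within a cell type was not tested.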
